A study of Mus musculus with 47 samples.

Results

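Pax1, Pax9 and Nkx3-2, 3 transcription factor genes chosen by symbol from the 38215 genes of an RNA-seq count table, were followed through mouse cranial neural crest cells, and all 3 passed the filter on low counts. Cells were taken from embryos at E10.5 and E11.5, with progenitors from E8.5 (E for embryonic day), and sorted by fluorescence, and by the labels they came from the second pharyngeal arch (PA2), the mandibular (Md) and maxillary (Mx) parts of the first arch or the frontonasal process (FNP). In all there were 47 libraries in 16 groups. The altered genotypes were Ezh2cKO, a conditional knockout of Ezh2, in PA2, Md, Mx and FNP at E10.5; HoxA2OE, in which Hoxa2 was overexpressed, in E10.5 Md; and Hoxa2TempMut, a temporal knockout of Hoxa2, in PA2 at E11.5. They were set against wild-type PA2, Md, Mx and FNP of E10.5 and, for Hoxa2TempMut, a group labelled Control in PA2 at E11.5. Wild-type PA2, Md, Mx and FNP of E11.5 and wild-type crest progenitors of E8.5 made up the rest. Each group had 3 libraries, except wild-type Mx at E10.5 with 2. The Cre driver of Ezh2cKO, the promoter of the HoxA2OE transgene, the time and inducer of the Hoxa2 deletion and the alleles of Control are not stated in the labels or design text. The labels number the replicates without saying that they are separate embryos or litters, so each p-value measures spread among these samples, which may be technical.

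Pax1 and Pax9 encode closely related paired-box transcription factors. In the mouse embryo both are active in the endoderm of the pharyngeal pouches and in the sclerotome, the part of the somite that forms vertebrae, where they act in part redundantly and turn on Nkx3-2. Nkx3-2, also called Bapx1, encodes a homeobox factor of the NK family; in the mouse arch it is needed for the gonial bone and the tympanic ring of the middle ear region, and in chick and zebrafish for the jaw joint. Loss of Pax9 in mouse leaves a cleft palate and arrests tooth buds. Hoxa2 sets the identity of the second arch, and without it mouse embryos form a second set of first-arch skeletal elements there. Ezh2 is the catalytic subunit of Polycomb repressive complex 2, which marks silent developmental genes on their histones.

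Pax1 (ENSMUSG00000037034) lies on the plus strand at chr2:147361925-147393295, Pax9 (ENSMUSG00000001497) on the plus strand at chr12:56691767-56712822, and Nkx3-2 (ENSMUSG00000049691) on the minus strand at chr5:41761483-41764496, as the table gives them on GRCm38. All 3 have protein-coding annotation. Their exons cover 4492, 5056 and 1713 bases in the same order. Promoters rich in CG dinucleotides are those at which Polycomb complexes are best known to act in mammals, so the 3 promoters are shown, as 300 bases of RefSeq sequence on GRCm38.p6 from 250 bases before to 50 bases after the annotated start, read 5′ to 3′ on the strand of the gene. The windows are chr2:147364744-147365043, chr12:56695221-56695520 and chr5:41764171-41764470. RefSeq's start of each gene lies inside the span that the table gives for it. Capitals mark a match to TGACAG, a Meis-type motif, on either strand; Meis factors bind with Pbx and Hox proteins.
Pax1: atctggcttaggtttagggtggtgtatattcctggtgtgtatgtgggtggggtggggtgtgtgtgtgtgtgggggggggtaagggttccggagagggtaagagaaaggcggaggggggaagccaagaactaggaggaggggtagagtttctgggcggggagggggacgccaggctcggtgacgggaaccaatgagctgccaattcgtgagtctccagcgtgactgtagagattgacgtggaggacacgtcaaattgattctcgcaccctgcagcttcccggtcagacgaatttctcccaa
Pax9: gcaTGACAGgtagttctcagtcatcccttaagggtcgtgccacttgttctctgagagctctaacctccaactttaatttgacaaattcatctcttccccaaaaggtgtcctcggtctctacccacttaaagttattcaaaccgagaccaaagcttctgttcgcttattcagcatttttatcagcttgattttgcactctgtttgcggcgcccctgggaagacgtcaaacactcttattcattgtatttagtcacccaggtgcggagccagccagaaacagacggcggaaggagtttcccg
Nkx3-2: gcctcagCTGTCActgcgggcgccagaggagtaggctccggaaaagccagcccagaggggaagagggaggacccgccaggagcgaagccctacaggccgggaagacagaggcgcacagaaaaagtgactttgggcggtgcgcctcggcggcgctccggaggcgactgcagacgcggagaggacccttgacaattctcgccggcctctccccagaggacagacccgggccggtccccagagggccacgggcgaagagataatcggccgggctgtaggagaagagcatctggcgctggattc
The Nkx3-2 promoter held 25 CG dinucleotides, the Pax1 promoter 13 and the Pax9 promoter 11, beside a median of 7 over 32851 promoters of this length. As many or fewer were found in 83.1% of promoters for Nkx3-2, 63.7% for Pax1 and 60.4% for Pax9. TGACAG stood at bases 4 to 9 of the Pax9 window on the plus strand of the gene, and its reverse complement CTGTCA at bases 8 to 13 of the Nkx3-2 window. No match was in the Pax1 window. Of all promoters, 19.2% held the motif on 1 strand or the other. A Pbx-Hox-type motif, TGATNNAT, was in 8.85% of promoters and a Gli-type motif, TGGGTGGTC, in 0.253%, both strands searched, and in none of these 3 windows. The search covered 300 bases of each gene and describes letters alone.

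The libraries held between 18.8 and 49.8 M counts each (1 M being 1e6), and the median was 30.6 M. All 8 markers of crest mesenchyme were detected in every group. Their summed level per library was 275 to 339 CPM at E8.5 and 2127 to 3130 CPM at E11.5. At E10.5 it was 2213 to 2896 CPM in HoxA2OE and 1256 to 1831 CPM in the other groups. CPM are counts per 1e6 counts of the library total after TMM scaling. The TMM factors were 0.514 to 0.775 in HoxA2OE and 0.889 to 1.16 in the other groups, and a low factor raises the CPM. HoxA2OE replicate 1 stood apart from the other libraries of its group, with 45.9% of its counts on mitochondrial genes beside 28.5% in each of the other 2. Libraries were not stranded, so reads of a gene cannot be told from those of an overlapping gene on the other strand. Pax1 overlaps the antisense transcript AI646519, and Pax9 overlaps the 3′ end of Slc25a21 on the opposite strand and Gm15524 on its own. In bulk RNA, fewer cells of a type and less RNA per cell cannot be told apart.

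**Figure D1:**
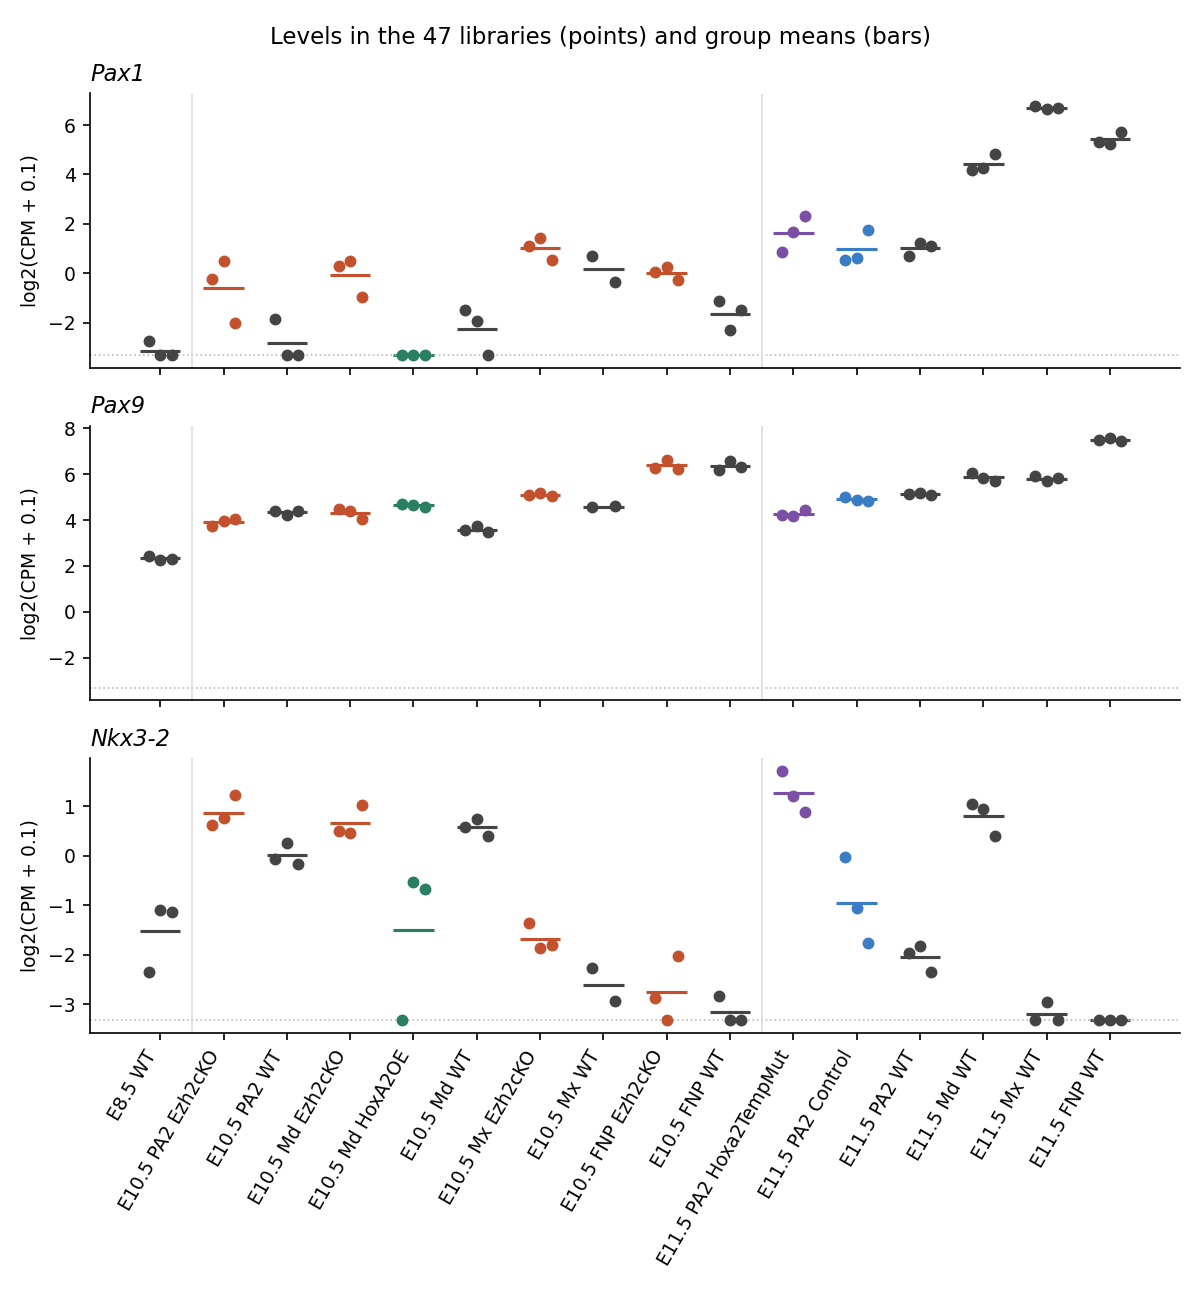
Levels of Pax1, Pax9 and Nkx3-2 in all 47 libraries as log2(CPM + 0.1), a panel per gene with its own vertical axis; points are libraries, bars are group means, and the dotted line is a count of 0. Pax1 lay below 3 CPM in each library before E11.5, Pax9 was present in every library, and Nkx3-2 lay between 0 and 3.19 CPM throughout.

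Of the 3 genes Pax1 changed most over time: it was barely detected in wild-type crest at E10.5 and became an abundant transcript of the maxillary and frontonasal crest at E11.5. In Mx it stood at 109, 101 and 102 CPM at E11.5, against 1.54 and 0.692 CPM at E10.5. In FNP the values were 39.98, 37.4 and 52.4 CPM at E11.5, against 0.356, 0.102 and 0.260 CPM at E10.5. In Md they were 18.05, 19.2 and 28.1 CPM at E11.5, against 0.255, 0.165 and 0 CPM at E10.5. Every E11.5 library of these 3 subpopulations lay above every E10.5 library of the same one. Separation of libraries, here and below, only describes these genes, as its share over all genes was not counted. PA2 remained low, with 1.52, 2.24 and 2.06 CPM at E11.5 against 0.181, 0 and 0 CPM at E10.5 (the E10.5 value rests on 4 counts in 1 library). The log2 fold change of E11.5 over E10.5 was 7.50 ± 0.47 (SE) in FNP, 7.15 ± 0.53 in Md, 6.51 ± 0.47 in Mx and 4.92 ± 0.81 in PA2. With edgeR's quasi-likelihood test and Benjamini-Hochberg adjustment over 20560 genes, the adjusted p-values were 8.27e-16 in FNP, 1.05e-13 in Md, 3.64e-14 in Mx and 5.62e-06 in PA2. The change did not pass a test of differing between the subpopulations (F test, adjusted p = 0.624). Leaving out PA2 replicate 1 of E10.5, which leaves PA2 at 0 counts, raised the fitted change in PA2 to 8.92 (adjusted p = 2.07e-05); without PA2 replicate 2 it was 4.31 (adjusted p = 0.000202). Without Md replicate 1 of E10.5 the change in Md was 7.82, and without Mx replicate 1 of E10.5 the change in Mx was 7.23.

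Pax9 was expressed at each stage and rose in each subpopulation, most in the mandibular crest. Md stood at 66.3, 57.1 and 52.7 CPM at E11.5, against 11.6, 13.1 and 10.9 CPM at E10.5, a log2 fold change of 2.302 ± 0.118 (edgeR adjusted p = 1.34e-18). In Mx the levels averaged 56.2 ± 4.50 CPM at E11.5 (SD, n = 3) and 24.0 ± 0.460 CPM at E10.5 (SD, n = 2), a change of 1.23 ± 0.13. FNP had the highest levels, 182 ± 6.34 CPM at E11.5 and 82.6 ± 11.6 CPM at E10.5 (SD, n = 3 each), a change of 1.14 ± 0.11. PA2 changed least, with 35.1, 36.2 and 34.1 CPM at E11.5 against 20.7, 18.7 and 20.98 CPM at E10.5, a log2 fold change of 0.80 ± 0.11 (edgeR adjusted p = 2.44e-07). In all 4 subpopulations the E11.5 libraries lay above those of E10.5 without overlap. The size of the rise differed between subpopulations (F test, adjusted p = 8.94e-09), and the change in PA2 minus that in Md was -1.498 ± 0.161 on the log2 scale (edgeR adjusted p = 2.3e-08). That PA2 and Md difference was chosen for testing after the values were seen.

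Nkx3-2 fell in PA2, and no change was called in Md. In PA2 it stood at 0.155, 0.182 and 0.0964 CPM at E11.5, against 0.860, 1.09 and 0.786 CPM at E10.5, a log2 fold change of -2.62 ± 0.60 (edgeR adjusted p = 0.000532). The E11.5 values rest on 14 counts over 3 libraries, all below the E10.5 values. The group labelled Control, also PA2 of E11.5, had 0.879, 0.383 and 0.194 CPM, and its highest library lay within the E10.5 range. Md had 1.95, 1.83 and 1.22 CPM at E11.5 and 1.40, 1.57 and 1.22 CPM at E10.5, ranges that overlap, and no difference was called (0.25 ± 0.42, adjusted p = 0.681). Mx and FNP were at or near 0 at both stages: 1 count over the E11.5 Mx libraries against 5 over those of E10.5, and 0 counts in FNP at E11.5 against 1 at E10.5. From so few counts at E10.5 a fall in Mx or FNP was not detectable at this depth. The stage effect on Nkx3-2 differed between subpopulations (F test, adjusted p = 0.0204), but not without PA2 replicate 2 of E10.5 (adjusted p = 0.0528) or PA2 replicate 3 of E11.5 (adjusted p = 0.0596). The change in PA2 minus that in Md was -2.87 ± 0.73 (edgeR adjusted p = 0.0255), a difference also picked with the values known, and its adjusted p was between 0.0516 and 0.0998 without any of 6 libraries: Md replicate 3 and PA2 replicate 2 of E10.5, and Md replicates 1 and 2 and PA2 replicates 1 and 3 of E11.5.

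Markers of crest and of other cells and the mitochondrial share also moved with stage. The sum of 8 crest mesenchyme markers was 2127 to 3130 CPM in wild-type libraries at E11.5, against 1302 to 1831 CPM at E10.5. The summed level of 9 somite markers was 50.5 to 56.8 CPM at E11.5 against 3.14 to 4.88 CPM at E10.5 in Md, 34.7 to 38.6 against 3.21 to 3.51 CPM in Mx, 23.7 to 24.8 against 8.06 to 8.72 CPM in PA2, and 4.63 to 5.11 against 8.33 to 11.3 CPM in FNP. Tbx18 alone averaged 39.2 CPM in Md and 35.1 CPM in Mx at E11.5, while Ripply1 and Ripply2 were at 0 in Md, Mx and PA2 at both stages, as was Uncx in Mx. The sum of 6 endothelial markers, each with a count in every group, was 14.7 to 22.5 against 3.44 to 4.41 CPM in Md, 8.65 to 9.87 against 1.86 to 1.95 CPM in Mx, 11.6 to 13.8 against 2.95 to 3.23 CPM in PA2, and 4.63 to 13.9 against 5.46 to 7.42 CPM in FNP. That of 6 erythroid markers, with Hba-a1 at 0, was 35.2 to 47.2 against 336 to 403 CPM in Mx. It was 54.0 to 78.2 against 219 to 283 CPM in Md and 27.5 to 43.5 against 175 to 423 CPM in PA2. In FNP it overlapped, at 26.1 to 65.3 against 24.9 to 50.4 CPM. The sum of 10 markers of branchiomeric mesoderm fell in Mx, 1.77 to 4.06 against 33.4 to 36.8 CPM, and in FNP, 7.32 to 7.92 against 12.8 to 13.5 CPM. It overlapped in Md and PA2. That of 6 neuronal markers rose in FNP, 56.0 to 70.9 against 9.67 to 10.4 CPM, and in Md, 14.2 to 16.7 against 6.52 to 7.34 CPM. It fell in Mx, 52.8 to 63.6 against 109 to 125 CPM, and overlapped in PA2. The mitochondrial share of counts was 11.7% to 19.5% at E11.5 against 28.2% to 33.6% at E10.5 in FNP, and 15.4% to 18.8% against 19.9% to 24.0% in the other 3 subpopulations. Their part in the changes of the 3 genes was not tested.

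As background for these counts, 38.3% of all genes tested were called between the stages in Md and in Mx, 39.4% in PA2 and 42.6% in FNP. Of the 3 genes, all were called in PA2 (2 higher, 1 lower; over all genes 21.4% were higher and 18.1% lower) and 2 in each of Md, Mx and FNP (both higher; over all genes 21.3%, 20% and 22.7% were higher in these). The F test of a differing change called 15.6% of genes, and the change in PA2 minus that in Md 1.85%. Averaged over the 4 subpopulations, the log2 change was 6.52 ± 0.27 for Pax1 (adjusted p = 2.2e-22), or 7.52 without PA2 replicate 1 of E10.5, and 1.37 ± 0.06 for Pax9 (adjusted p = 1.14e-22). Here 63.8% of genes were called. No averaged fold is given for Nkx3-2, because groups in the average had 3 counts or fewer, and it was not called (adjusted p = 0.0789).

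**Figure D2:**
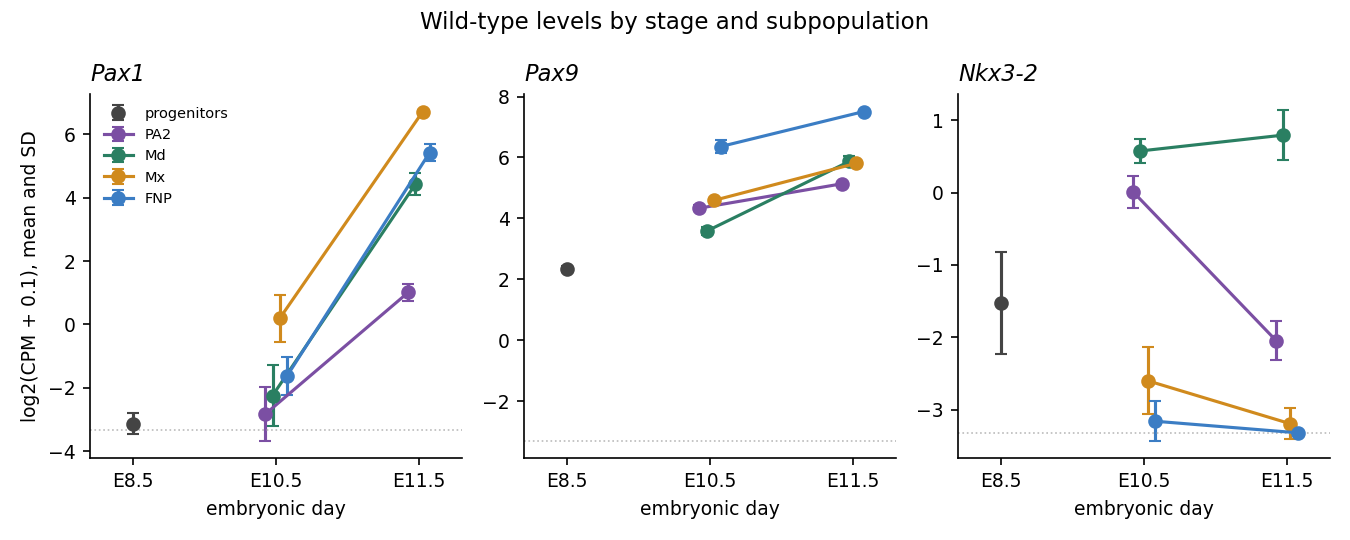
Wild-type levels of the 3 genes by embryonic day as log2(CPM + 0.1), mean and SD over 3 libraries (2 for Mx at E10.5), coloured by subpopulation; the dotted line is a count of 0. Pax1 reached 104 CPM in Mx and 1.94 CPM in PA2 at E11.5, the Pax9 line of Md crosses that of PA2, and Nkx3-2 parts between Md and PA2.

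In the E8.5 progenitors Pax9 was already detected, at 5.28, 4.66 and 4.86 CPM. The E10.5 crest, averaged over the 4 subpopulations, was higher by a log2 fold change of 2.41 ± 0.11 (edgeR adjusted p = 2.08e-22), with the lowest E10.5 library at 10.9 CPM and so above each progenitor library. Nkx3-2 had 0.0970, 0.367 and 0.356 CPM in the progenitors, and Pax1 2 counts in 1 of the 3 libraries. Pax1 was called higher at E10.5 (adjusted p = 0.00911) and Nkx3-2 was not (adjusted p = 0.39); groups with 3 counts or fewer enter both averages, so no fold is given. Between these stages 68.4% of genes were called. The progenitors also held more RNA of epithelial and endodermal markers, a summed 241 to 259 CPM over 16 genes of which Gcm2 was at 0, against at most 17.7 CPM in the E10.5 wild-type libraries. Pax1 and Pax9 are themselves genes of that endoderm. The progenitors also had higher sums of endothelial markers, 135 to 150 against 1.86 to 7.42 CPM, and of erythroid ones, 611 to 984 against 24.9 to 423 CPM. For branchiomeric mesoderm the sums were 61.4 to 89.2 against 2.53 to 36.8 CPM. Their neuronal and somite sums lay within the E10.5 wild-type range. The part of such cells in the Pax9 level of the progenitors was not tested.

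Among the wild-type subpopulations of E11.5 each gene had its own order of levels. Pax1 ran from Mx (104 ± 4.27 CPM) through FNP (43.3 ± 7.98 CPM) and Md (21.8 ± 5.48 CPM) to PA2 (1.94 ± 0.374 CPM; SD, n = 3 each). All 6 pairs were called and none overlapped. The neighbours in this order differed by log2 fold changes of 1.27 ± 0.29 for Mx over FNP (edgeR adjusted p = 0.00151), -0.99 ± 0.29 for Md over FNP (adjusted p = 0.0142) and -3.49 ± 0.35 for PA2 over Md (adjusted p = 6.32e-10). The Md and FNP difference was lost with DESeq2 (-0.98, adjusted p = 0.18) and without FNP replicate 3 (-0.82, adjusted p = 0.105), Md replicate 1 (-0.87, adjusted p = 0.0897) or Md replicate 2 (-0.91, adjusted p = 0.0791). Pax9 ran from FNP (182 CPM) to Md (58.7 ± 6.90 CPM) and Mx (56.2 ± 4.50 CPM) and then PA2 (35.1 ± 1.08 CPM). Md and Mx overlapped and did not differ by the test (0.06 ± 0.11, adjusted p = 0.852), and the other 5 pairs were called. Nkx3-2 was highest in Md (1.67 ± 0.393 CPM), above PA2 (0.144 ± 0.0437 CPM) by a wide margin: PA2 over Md was -3.48 ± 0.55 (adjusted p = 9.89e-06). FNP had 0 counts, and with 3 counts over the group in their place Md stood 65.5-fold above FNP and PA2 5.74-fold. Md over Mx was called (adjusted p = 3.71e-08), at a ratio of 162 (95% counting interval 28.7 to 6430) from 1 Mx count. PA2 over Mx was not called in the fit of all groups (adjusted p = 0.0674; ratio 14.2, counting interval 2.16 to 601), and was called with no filter (adjusted p = 0.0287), with DESeq2 (adjusted p = 0.0306) and in a fit of the groups compared (adjusted p = 0.0475). Counting intervals cover counting error alone, and folds against 3 counts cover only that of the group with 0 counts.

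The shares of all genes called at E11.5 were 7.88% for PA2 over Md, 14.3% for PA2 over Mx, 27.1% for PA2 over FNP, 9.18% for Md over Mx, 15.7% for Md over FNP and 16.7% for Mx over FNP. Between PA2 and Md, all 3 genes were lower in PA2, as were 3.78% of genes. Scaled to exon length, Pax1 exceeded Pax9 in Mx alone among the E11.5 groups: the ratio of the level of Pax1 per kilobase to that of Pax9 was 2.03, 2.22 and 2.03 in the Mx libraries. It was 0.251, 0.223 and 0.332 in FNP, 0.307, 0.378 and 0.599 in Md, and at most 0.255 in the 9 PA2 libraries of the 3 genotypes. On that scale Nkx3-2 averaged 0.972 CPM per kilobase in Md, beside 4.84 for Pax1 and 11.6 for Pax9. The summed level of 16 epithelial and endodermal markers was 3.70 to 6.34 CPM in Mx, 9.10 to 20.6 CPM in FNP, 5.30 to 8.98 CPM in Md and 6.46 to 9.53 CPM in PA2, with its lowest values in Mx, where Pax1 was highest; their part in these levels was not tested. Of the somite markers, Uncx, Ripply1 and Ripply2 were at 0 in Mx at E11.5, while the sum over all 9, which hold Meox1 and Tbx18, was 34.7 to 38.6 CPM.

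At E10.5 Pax9 had another order. FNP led with 72.5, 95.2 and 80.04 CPM, then Mx with 23.6 and 24.3 CPM, PA2 with 20.7, 18.7 and 20.98 CPM, and Md with 11.6, 13.1 and 10.9 CPM. PA2 over Mx was not called (-0.25 ± 0.13, edgeR adjusted p = 0.298), and the other 5 pairs were. PA2 stood above Md at this stage (0.76 ± 0.12, adjusted p = 1.17e-05) and below it at E11.5 (-0.74 ± 0.11, adjusted p = 2.6e-06). At both stages the libraries of PA2 and Md did not overlap. Nkx3-2 was detected in both arches at E10.5: PA2 and Md differed by -0.61 ± 0.46 (adjusted p = 0.669), a difference that was not called although the libraries did not overlap. PA2 over Mx was 3.603 ± 0.769 (adjusted p = 0.000819), or 4.70 without Mx replicate 1, and Md over Mx was 4.21 ± 0.73 (adjusted p = 5.66e-05), or 5.31 without it. Over FNP, which had 1 count, both were called (adjusted p = 6.29e-06 for PA2 and 3.05e-07 for Md). Mx over FNP was not called (adjusted p = 0.365).

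Pax1 was already highest in Mx at E10.5, on 80 counts over its 2 libraries, with 20 counts in FNP, 10 in Md and 4 in PA2 over 3 libraries each. The log2 fold change was 2.26 ± 0.66 for Mx over FNP (edgeR adjusted p = 0.0145), -2.89 ± 0.77 for Md over Mx (adjusted p = 0.0123) and -4.15 ± 0.93 for PA2 over Mx (adjusted p = 0.00159). None of the 3 other pairs was called. These calls rested on Mx replicate 1, without which the changes were 1.54 (adjusted p = 0.327), -2.18 (adjusted p = 0.392) and -3.43 (adjusted p = 0.0914). Mx over FNP was also lost without FNP replicate 2 (1.89, adjusted p = 0.0746) and Md over Mx without Md replicate 3 (-2.42, adjusted p = 0.0739). Without Md replicate 1, Md over Mx was -3.57. PA2 over Mx was -3.54 without PA2 replicate 2 and -8.15 without PA2 replicate 1, which leaves PA2 at 0 counts. Of all genes, 4.67% were called for PA2 over Md, 8.76% for PA2 over Mx, 23.1% for PA2 over FNP, 6.61% for Md over Mx, 21.6% for Md over FNP and 16.5% for Mx over FNP.

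Ezh2 loss was read at E10.5. Ezh2 itself averaged 131 to 144 CPM in the 4 Ezh2cKO groups and 354 to 371 CPM in the wild-type groups, as counts over the whole gene. Pax1 was higher with the loss of Ezh2, at low levels. In PA2 it stood at 0.758, 1.29 and 0.145 CPM in Ezh2cKO, against 0.181, 0 and 0 CPM in wild type, so that 1 Ezh2cKO library overlapped the wild type. In Md it was 1.13, 1.32 and 0.410 CPM in Ezh2cKO, against 0.255, 0.165 and 0 CPM in wild type, and the groups did not overlap. The log2 fold changes were 3.502 ± 0.994 in PA2 (edgeR adjusted p = 0.0179), 2.68 ± 0.78 in Md (adjusted p = 0.0228), 1.94 ± 0.66 in FNP (adjusted p = 0.0704) and 0.81 ± 0.48 in Mx (adjusted p = 0.346; 1.52 without wild-type Mx replicate 1, adjusted p = 0.229). FNP had 0.926, 1.08 and 0.722 CPM in Ezh2cKO, against 0.356, 0.102 and 0.260 CPM in wild type, without overlap, and passed the threshold with no filter (adjusted p = 0.00302), with DESeq2 (adjusted p = 0.0212) and in a fit of the 2 FNP groups (adjusted p = 0.0173). Averaged over the 4 subpopulations the change was 2.23 ± 0.38 (adjusted p = 1.04e-05), and 3.23 without wild-type PA2 replicate 1. A differing effect between subpopulations was not called (F test, adjusted p = 0.741).

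The calls of Pax1 in PA2 and in Md each depended on single libraries. In PA2 the call was lost without wild-type replicate 2 (2.89, adjusted p = 0.103) or 3 (adjusted p = 0.0858) or Ezh2cKO replicate 2 (2.81, adjusted p = 0.167), and without wild-type replicate 1, which leaves 0 counts, the fitted change was 7.50 (adjusted p = 0.0149). In Md it was lost without wild-type replicate 2 (adjusted p = 0.073) or 3 (adjusted p = 0.117) or Ezh2cKO replicate 1 (adjusted p = 0.0774) or 2 (adjusted p = 0.122), and was 3.35 without wild-type replicate 1. Pax1 in Ezh2cKO remained far from its later level: the highest Ezh2cKO library had 2.62 CPM, against 18.05 to 109 CPM in wild-type Md, FNP and Mx at E11.5.

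**Figure D3:**
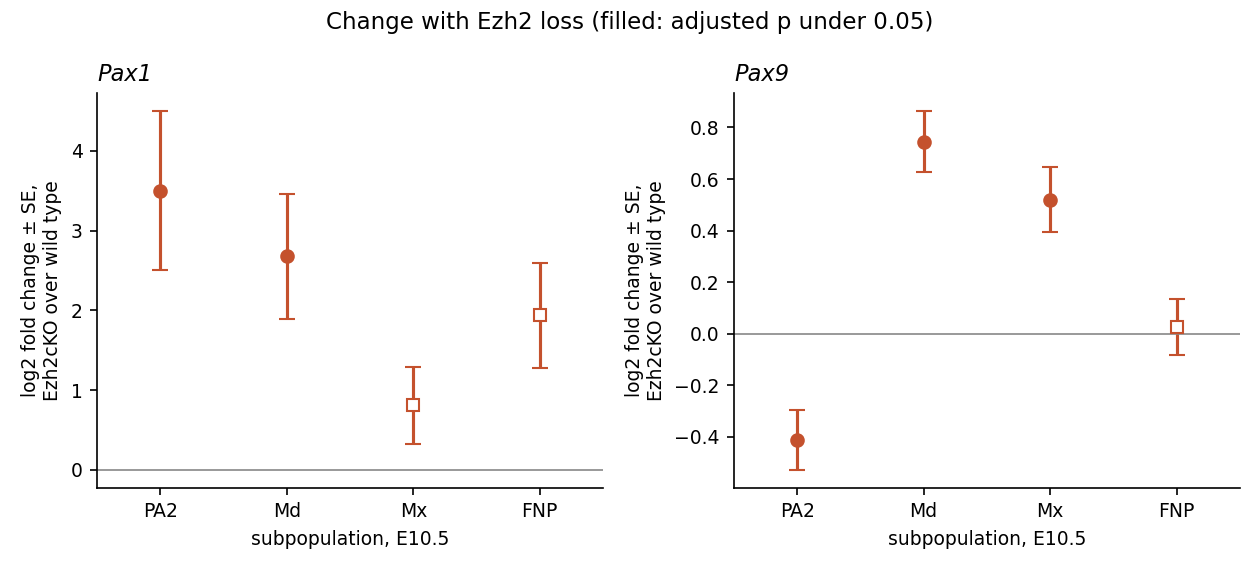
Log2 fold change of Ezh2cKO over wild type at E10.5 for Pax1 and Pax9, with its SE, by subpopulation; circles have an adjusted p under 0.05, open squares do not, and each panel has its own vertical axis. All 4 estimates of Pax1 lie above 0, while Pax9 is below 0 in PA2 (-0.41) and above it in Md (0.74) and Mx (0.52).

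Pax9 responded to Ezh2 loss in opposite directions in the 2 arches. In Md it stood at 22.5, 20.8 and 16.5 CPM in Ezh2cKO, against 11.6, 13.1 and 10.9 CPM in wild type, a log2 fold change of 0.74 ± 0.12 (edgeR adjusted p = 1.36e-05). In PA2 it was 13.4, 15.6 and 16.3 CPM in Ezh2cKO, against 20.7, 18.7 and 20.98 CPM in wild type, a change of -0.41 ± 0.12 (adjusted p = 0.0156). Neither pair of groups overlapped. Mx was higher in Ezh2cKO, at 34.4 ± 1.71 CPM (n = 3), against 24.0 ± 0.460 CPM in wild type (SD, n = 2), a change of 0.52 ± 0.13 (edgeR adjusted p = 0.00424). FNP was not called (0.03 ± 0.11, adjusted p = 0.948). The effect differed between subpopulations (F test, adjusted p = 2.25e-05), and the change in PA2 minus that in Md was -1.16 ± 0.17 (adjusted p = 3.64e-05), a test chosen with the values known. Averaged over the 4 subpopulations the change was 0.22 ± 0.06 (adjusted p = 0.00322). The PA2 call was lost without wild-type replicate 1 (adjusted p = 0.0637) or 3 (adjusted p = 0.0715) or Ezh2cKO replicate 1 (adjusted p = 0.105), and the Mx call without either wild-type library (adjusted p = 0.0674 and 0.0544).

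Nkx3-2 was not called with Ezh2 loss in any subpopulation. In PA2 it had 1.44, 1.60 and 2.25 CPM in Ezh2cKO, against 0.860, 1.09 and 0.786 CPM in wild type, values that did not overlap (0.94 ± 0.44, edgeR adjusted p = 0.205; 0.0187 in a fit of the 2 PA2 groups). In Md it had 1.31, 1.28 and 1.95 CPM in Ezh2cKO and 1.40, 1.57 and 1.22 CPM in wild type, which overlapped (0.10 ± 0.43, adjusted p = 0.957). Mx held 16 counts in Ezh2cKO over 3 libraries and 5 in wild type over 2, and FNP 5 counts against 1. The average over the 4 subpopulations was not called (adjusted p = 0.0687). Of all genes, 9.17% were called with Ezh2 loss in PA2, 8.87% in Md, 10.3% in Mx, 6.8% in FNP and 30.8% on average over the 4. The F test of a differing effect called 1.63%, and the change in PA2 minus that in Md 0.253%. Of 14 tested markers of epithelium and endoderm, 9 were higher and none lower in Ezh2cKO on average; the sum over all 16 was 15.9 to 16.6 CPM in Ezh2cKO PA2, against 4.48 to 5.54 CPM in wild-type PA2, with Gcm2 and Foxn1 at 0 in both and Shh at 0 in wild type. That sum was 11.7 to 15.1 CPM in Ezh2cKO Md against 3.93 to 4.33 CPM in wild-type Md, 11.4 to 11.9 against 2.64 to 3.91 CPM in Mx, and 15.9 to 17.8 against 8.27 to 17.7 CPM in FNP. Of 10 tested markers of branchiomeric mesoderm 5 were higher on average, of 6 neuronal ones 4, and of 4 somite ones 3, with none lower. The endothelial sum was higher in Ezh2cKO PA2 (4.74 to 5.48 against 2.95 to 3.23 CPM) and Mx. It was lower in FNP (2.99 to 4.95 against 5.46 to 7.42 CPM) and overlapped in Md. The erythroid sum was lower in FNP (19.4 to 20.3 against 24.9 to 50.4 CPM) and overlapped elsewhere. The mitochondrial share was higher in Ezh2cKO PA2 (26.7% to 29.9% against 22.2% to 23.6%), Md and Mx, and overlapped in FNP. The part of all these in the results on Pax1 and Pax9 was not tested.

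Hoxa2 was then varied. Md with HoxA2OE had 110 ± 15.9 CPM of Hoxa2, against 0.270 ± 0.0251 CPM in wild-type Md and 125 ± 1.25 CPM in wild-type PA2 (SD, n = 3 each). Pax9 was higher and Nkx3-2 lower in HoxA2OE. Pax9 stood at 25.99, 25.2 and 23.7 CPM in HoxA2OE, against 11.6, 13.1 and 10.9 CPM in wild-type Md, a log2 fold change of 1.07 ± 0.12 (edgeR adjusted p = 8.87e-10). The HoxA2OE libraries also lay above the 18.7 to 20.98 CPM of wild-type PA2 (0.31 ± 0.11, adjusted p = 0.0185). These levels rest on TMM factors of 0.514, 0.775 and 0.765 in HoxA2OE. The factors were 0.996 to 1.05 in wild-type PA2 and 1.00 to 1.08 in wild-type Md. Without TMM scaling, Pax9 had 629, 891 and 904 counts in totals of 47.1, 45.6 and 49.8 M in HoxA2OE. Wild-type PA2 had 458, 445 and 427 counts in totals of 22.2, 23.0 and 19.5 M. On such totals HoxA2OE would overlap wild-type PA2, and its replicate 1 would lie within the wild-type Md range. Nkx3-2 had 0, 0.594 and 0.525 CPM in HoxA2OE, against 1.40, 1.57 and 1.22 CPM in wild-type Md, a change of -1.79 ± 0.48 (adjusted p = 0.00193), and lay below the 0.786 to 1.09 CPM of wild-type PA2 as well (-1.18 ± 0.51, adjusted p = 0.0463). After TMM scaling, neither gene overlapped between HoxA2OE and the wild-type groups. Pax1 had 0 counts in HoxA2OE against 10 in wild-type Md (edgeR adjusted p = 0.0485). With 3 counts in place of the 0 it was 4.88-fold lower, a figure that leaves out the counting error of the 10 counts. Pax1 was not called against wild-type PA2 with 4 counts (adjusted p = 0.212, or 0.0389 with DESeq2).

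These comparisons sit on a broad difference: 54.8% of all genes were called against wild-type Md and 56.1% against wild-type PA2. The zero of Nkx3-2 was in HoxA2OE replicate 1, the library with the high mitochondrial share, where a count of 0 allows up to 3 counts; without it Nkx3-2 was -1.34 (adjusted p = 0.0104) and Pax9 1.02 (adjusted p = 1.87e-08) against wild-type Md. The sum of 6 erythroid markers, of which Hba-a1 was at 0 in both groups, was 10.4 to 13.3 CPM in HoxA2OE, against 219 to 283 CPM in wild-type Md. The sums of other markers ran the other way: the sum of 6 endothelial markers was 8.80 to 10.3 CPM in HoxA2OE against 3.44 to 4.41 CPM in wild-type Md, that of 10 markers of branchiomeric mesoderm 12.2 to 17.8 against 7.43 to 10.6 CPM, and that of 16 epithelial and endodermal markers 5.46 to 7.64 against 3.93 to 4.33 CPM. The sum of 8 crest mesenchyme markers was 2213 to 2896 CPM in HoxA2OE, against 1662 to 1690 CPM in wild-type Md. All these sums rest on TMM factors of 0.514 to 0.775 in HoxA2OE, against 1.00 to 1.08 in wild-type Md. Such low factors raise the CPM of every gene in HoxA2OE, and the share of scaling in the higher sums was not tested. The part of all these markers in the results was not tested. In a fit of the 2 groups, Nkx3-2 and Pax1 were no longer called against wild-type Md (adjusted p = 0.0793 and 0.0665). The Pax1 call was lost without any of 5 libraries, wild-type Md replicates 1 and 2 and the 3 of HoxA2OE (adjusted p up to 0.165). Against wild-type PA2, Pax9 was lost in a fit of the 2 groups (adjusted p = 0.116) and without HoxA2OE replicate 1 (adjusted p = 0.0806) or wild-type PA2 replicate 2 (adjusted p = 0.0889). Nkx3-2 was lost there with the replicate number as a block (adjusted p = 0.0537), in a fit of the 2 groups (adjusted p = 0.228), without HoxA2OE replicate 1 (adjusted p = 0.182) and without wild-type PA2 replicate 1 (adjusted p = 0.07), 2 (adjusted p = 0.142) or 3 (adjusted p = 0.0563).

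**Figure D4:**
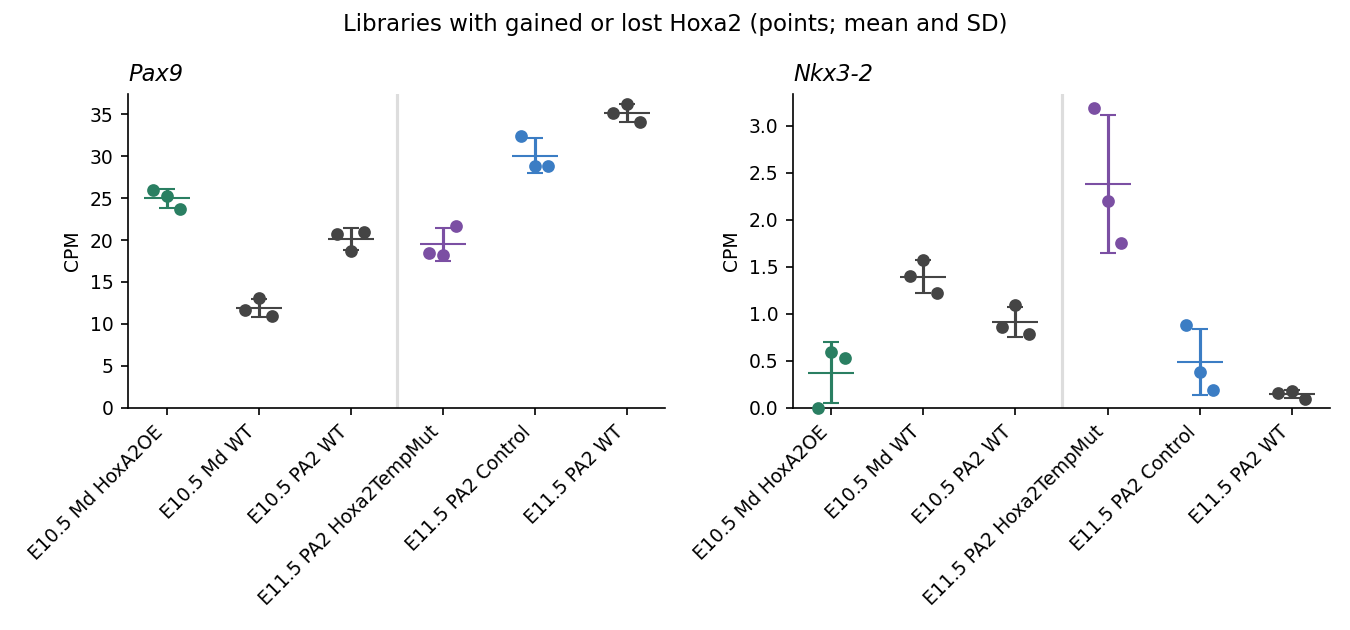
Pax9 and Nkx3-2 in CPM in the libraries with gained Hoxa2 (left of the grey line) and lost Hoxa2 (right of it) with their comparison groups; points are libraries, and the bars give the mean and SD of 3. In TMM-scaled CPM, HoxA2OE is above both wild-type groups for Pax9 and below them for Nkx3-2, and Hoxa2TempMut is below Control for Pax9 and above it for Nkx3-2.

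In PA2 of E11.5, Nkx3-2 was higher and Pax9 lower in Hoxa2TempMut than in Control. Hoxa2 counts over the whole gene averaged 185 ± 9.49 CPM in Hoxa2TempMut, 268 ± 0.794 CPM in Control and 192 ± 8.11 CPM in wild-type PA2 (SD, n = 3 each), and cannot check a deletion of part of the gene. Nkx3-2 stood at 3.19, 2.20 and 1.75 CPM in Hoxa2TempMut, against 0.879, 0.383 and 0.194 CPM in Control, a log2 fold change of 2.29 ± 0.44 or 4.89-fold (edgeR adjusted p = 0.00259). Each Hoxa2TempMut library exceeded each Control library. Pax9 stood at 18.5, 18.2 and 21.7 CPM in Hoxa2TempMut, against 32.4, 28.9 and 28.8 CPM in Control, a change of -0.62 ± 0.11 (adjusted p = 0.00069), again without overlap. Pax1 had 1.72, 3.12 and 4.93 CPM in Hoxa2TempMut and 1.36, 1.44 and 3.29 CPM in Control, which overlapped, and was not called (0.67 ± 0.36, adjusted p = 0.918). So 2 of the 3 genes were among the 0.623% of all genes called here, 128 genes in all. The change of Nkx3-2 was 3.04 (adjusted p = 0.000686) without Control replicate 1 and lost its call without Control replicate 3 (1.91, adjusted p = 0.0585), while Pax9 kept its call without any single library.

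The level of Nkx3-2 in Control was itself above that in wild-type PA2 of E11.5, which had 0.155, 0.182 and 0.0964 CPM (1.71 ± 0.62, edgeR adjusted p = 0.0424). That call was lost without any of wild-type PA2 replicates 1 to 3 (adjusted p between 0.0713 and 0.138) and without Control replicate 1 (0.96, adjusted p = 0.386), and 22.1% of genes were called between Control and wild type. Pax9 in Control, at 30.0 ± 2.08 CPM, was not called against the 35.1 ± 1.08 CPM of wild-type PA2 (-0.23 ± 0.11, adjusted p = 0.142), though it was in a fit of the 2 groups (adjusted p = 0.0382). Markers of other cells differed between these groups. The sum of 10 markers of branchiomeric mesoderm was 20.1 to 26.1 CPM in Hoxa2TempMut, 30.3 to 49.3 CPM in Control and 3.48 to 11.1 CPM in wild-type PA2, with each marker detected in all 3 groups. The sum of 16 epithelial and endodermal markers was 8.24 to 9.63 CPM in Hoxa2TempMut, 11.7 to 15.8 CPM in Control and 6.46 to 9.53 CPM in wild type, with Gcm2 at 0 in Hoxa2TempMut and Foxa1, Shh and Foxn1 at 0 in wild type. That of 9 somite markers was 27.4 to 30.6 CPM in Hoxa2TempMut, 18.9 to 25.8 CPM in Control and 23.7 to 24.8 CPM in wild type, with Ripply1 and Ripply2 at 0. The sum of 6 neuronal markers was 10.3 to 11.7 CPM in Hoxa2TempMut, 12.7 to 15.7 CPM in Control and 9.03 to 11.1 CPM in wild type. Endothelial and erythroid sums overlapped between Hoxa2TempMut and Control. None of the 14 tested markers of epithelium and endoderm or the 10 of branchiomeric mesoderm was called between Hoxa2TempMut and Control. The somite marker Tbx18 was called higher in Hoxa2TempMut (17.3 against 10.04 CPM, edgeR adjusted p = 0.0241). Their part in the changes of Nkx3-2 and Pax9 was not tested.

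Genes near the 3 were looked at for the same comparisons. Within 500 kilobases the table has 17 genes around Pax1, 10 around Pax9 and 3 around Nkx3-2, of which 6, 6 and 3 were tested. Between the stages, where 63.8% of genes were called on average, 3 neighbours of Pax1, 3 of Pax9 and 2 of Nkx3-2 were higher, and 1 of Pax9 lower. AI646519, the antisense transcript that overlaps Pax1, had 172 counts in Mx, 94 in FNP, 36 in Md and 10 in PA2 at E11.5, against 2 in Mx and 0 in FNP, Md and PA2 at E10.5. It was called higher in all 4 (edgeR adjusted p from 3.37e-07 to 0.0178 outside Mx, and 2.55e-07 in Mx), and its order of levels at E11.5 was that of Pax1; reads of the pair cannot be told apart where they overlap. Slc25a21, a mitochondrial carrier gene that overlaps the end of Pax9, was higher at E11.5 in all 4 subpopulations, by log2 changes of 0.99 ± 0.30 in PA2 to 1.95 ± 0.31 in Md. It was also higher in Ezh2cKO on average (3.45 against 2.47 CPM; 0.66 ± 0.15, edgeR adjusted p = 0.000773), in Md (2.26 against 0.988 CPM, adjusted p = 0.0165) and in Mx (3.21 against 1.66 CPM, adjusted p = 0.0491). Its reads cannot be told from antisense reads of Pax9 where they overlap. Nkx2-2, a homeobox gene of ventral neural progenitors 168 kilobases from Pax1, had 24 counts over the Ezh2cKO libraries and 2 over the wild-type ones (adjusted p = 0.028). The antisense AI646519 had 18 counts against 2 (adjusted p = 0.0192), and Nkx2-1, a homeobox gene of thyroid and forebrain 155 kilobases from Pax9, had 9 against 0 (adjusted p = 0.04). Xrn2, an exoribonuclease gene, was slightly lower (-0.15 ± 0.04, adjusted p = 0.00247). None of Rab28, Bod1l and Gm16223 around Nkx3-2 was called with Ezh2 loss on average, beside 30.8% of all genes. In HoxA2OE over wild-type Md all 3 were higher, as were Xrn2 around Pax1 and Mbip and Slc25a21 around Pax9, beside 27.1% of all genes. These calls rest on TMM factors of 0.514 to 0.775 in HoxA2OE, against 1.00 to 1.08 in wild-type Md. Without TMM scaling, Xrn2 had 23344 counts in HoxA2OE totals of 47.1, 45.6 and 49.8 M. In wild-type Md it had 10747 counts in totals of 22.6, 22.5 and 18.8 M. In HoxA2OE, Bod1l averaged 450 ± 216 CPM and Mbip 42.6 ± 18.3 CPM (SD, n = 3 each). No tested neighbour of any of the 3 was called between Hoxa2TempMut and Control.

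Other genes of the same pathways were followed through lists for the paired-box family, hedgehog response and sclerotome, palate and tooth, jaw joint and middle ear, and cartilage. Between E11.5 and E10.5, averaged over subpopulations, 33.7% of all genes were higher and 30.1% lower, with a median log2 change of 0.03. Of 16 palate and tooth genes 12 were higher and 1 lower, with a median change of 0.86. They include Inhba, an activin subunit needed for teeth, at 24.0 against 1.86 CPM, and Osr2, a zinc-finger regulator of palate and tooth rows, at 25.8 against 3.82 CPM. Of 14 jaw joint and middle ear genes 9 were higher and 2 lower (median 0.70); Gdf6, a joint growth factor, was lower at 8.88 against 16.9 CPM. In the hedgehog and sclerotome list 3 of 15 tested genes were higher, Tbx18, Meox1 and Meox2, and 7 lower, the forkhead genes Foxc1 and Foxd2 among them (median -0.17). Cartilage genes were split, with 6 higher and 5 lower of 15 (median 0.25): Runx2, the regulator of bone formation, stood at 176 against 27.2 CPM and Col2a1, the main cartilage collagen, at 175 against 312 CPM. Of 6 other paired-box genes tested, Pax3, Pax6 and Pax7 were higher (median 0.68). For Pax7 the average of the 4 log2 changes was 2.76 ± 0.47, although its mean level over the groups was 40.7 CPM at E11.5 against 48.5 CPM at E10.5.

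With Ezh2 loss, 16.1% of all genes were higher and 14.7% lower on average, with a median log2 change of -0.02. Of 15 tested hedgehog and sclerotome genes 11 were higher and none lower (median 0.44), led by Tbx18, a T-box factor, at 10.48 against 1.75 CPM and Meox1, a homeobox factor of somites, at 6.68 against 2.54 CPM. In the jaw joint list 9 of 14 were higher and 1, Jag1, lower (median 0.58), with Gsc, a homeobox gene of the arches and middle ear, at 5.54 against 3.89 CPM. Palate and tooth genes had 7 higher and 4 lower of 16 (median 0.23), with Osr2 at 13.1 against 3.82 CPM, and cartilage genes 3 higher and 4 lower of 15 (median 0.01). For Hand2, Dlx5, Dlx6 and Lhx6, which count as higher by the average of the 4 log2 changes, the mean level over the groups was lower in Ezh2cKO, as for Hand2 with 21.3 against 25.9 CPM. Of the paired-box genes Pax2, Pax5 and Pax6 were higher (median 0.95 over 6): Pax2, a gene of kidney, ear and brain, had 872 counts in Ezh2cKO against 128 in wild type, and Pax5 17 against 0.

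In HoxA2OE against wild-type Md, 27.1% of all genes were higher and 27.8% lower, with a median of -0.07. Jaw joint genes had 3 higher and 6 lower of 14 (median -0.38); Emx2, a homeobox gene whose loss affects the incus and malleus, stood at 45.8 against 11.6 CPM and Gsc at 2.92 against 8.71 CPM. Palate and tooth genes had 2 higher and 7 lower of 16 (median -0.30), with Osr2 at 1.77 against 8.94 CPM. The hedgehog and sclerotome list had 6 higher and 2 lower of 15 (median 0.35), cartilage 2 higher and 3 lower of 15 (median 0), and the paired-box family 2 higher and 1 lower of 6 (median 0.09), the last being Pax3 at 0.385 against 11.9 CPM. Between Hoxa2TempMut and Control 0.258% of all genes were higher and 0.365% lower. Gdf6 was higher in Hoxa2TempMut (6.23 against 3.02 CPM; 1.04 ± 0.21, edgeR adjusted p = 0.00384), as were Lhx6, a homeobox gene of the oral first arch (42.8 against 23.97 CPM, adjusted p = 0.027), Tbx18 (17.3 against 10.04 CPM, adjusted p = 0.0241), and the cartilage regulators Sox5 (75.4 against 55.9 CPM, adjusted p = 0.0259) and Sox6 (34.3 against 24.5 CPM, adjusted p = 0.0303). These are 1 of 14 jaw joint genes, 1 of 16 palate and tooth genes, 1 of 15 hedgehog and sclerotome genes and 2 of 15 cartilage genes tested. Of the paired-box genes Pax3 was higher (235 against 84 counts, adjusted p = 0.00137) and Pax2 lower (42 against 219 counts, adjusted p = 5.62e-05). The list medians were 0.13 for the jaw joint, -0.01 for palate and tooth, 0.22 for hedgehog and sclerotome, 0.26 for cartilage and -1.21 for the paired-box family, beside 0.01 over all genes.

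The genes whose pattern over the 16 group means lay closest to each of the 3 were ranked by Pearson correlation of log2(CPM + 0.1) among 12966 genes that reach 5 CPM in some group. These are descriptions over groups that share depth, stage and cells. For Pax1 they were Prkar1b (0.965), the leptin receptor gene Lepr (0.952), Runx2 (0.946), Nfatc2 (0.933) and the lamin gene Lmna (0.931). Lepr, Runx2, Nfatc2 and Lmna were highest in Mx at E11.5, as Pax1 was, and Prkar1b in FNP. For Pax9 they were Reep5 (0.961), Pcsk5 (0.941), Apbb2 (0.933), Serpine2 (0.929) and Rai14 (0.927), each highest in FNP at E11.5. For Nkx3-2 they were Syt6 (0.895), Klf14 (0.882), AC119275.1 (0.851), the nuclear receptor gene Nr5a2 (0.848) and Rtl1 (0.841), of which Nr5a2 and Rtl1 were highest in Hoxa2TempMut, as Nkx3-2 was. Between the 3 genes themselves the correlation was 0.63 for Pax1 with Pax9, -0.23 for Pax1 with Nkx3-2 and -0.56 for Pax9 with Nkx3-2 over the same 16 group means.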

How the data were processed

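Gene expression was measured by RNA-seq of sorted cranial neural crest cells. The authors deposited raw read counts per gene in 1 table of the whole series, per the file headers, on GRCm38; libraries were unstranded ScriptSeq v2 libraries, read as single ends of 50 bases, per the labels' protocols, and bcl2fastq 2.17 is named in the submitters' processing notes. No aligner or counting tool is named in the sources used here. Of its columns, 22 occur again with identical values, and each was used once; 0 columns belonged to samples outside the labels. Columns were matched to samples by their titles.

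All 47 libraries entered 1 fit in edgeR 4.0.16 (R 4.3.3), with 16 group means, TMM scaling and filterByExpr (minimum count 10, minimum total 15), which left 20560 genes and 31 residual degrees of freedom. Contrasts were tested with the quasi-likelihood test, adjusted by Benjamini-Hochberg within a comparison and called at an adjusted p under 0.05; SEs of log2 fold changes are from the F statistic. Folds against 0 use 3 counts over that group and leave out the counting error of the other group. Ratios with 1 to 3 counts have a 95% counting interval. Alternatives were RLE scaling, no filter, a replicate block, DESeq2 1.42.0, fits of the groups compared alone, and leaving out each library. The model was tested on simulated data.

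Same-numbered libraries deviated together, with every correlation over 0.1, in 3 comparisons with 3 pairs (PA2 over Md at E10.5, PA2 over Mx at E11.5, and the stages in FNP), a hint from the data alone; PA2 over Mx at E10.5, with correlations of 0.192 and 0.198 over 2 pairs, is undecided, and elsewhere at least 1 correlation was under 0.1. The closest pair of replicates had a chi-square of 3.53 per degree of freedom over genes, so no library was treated as a repeat of another. The farthest pairs were those of HoxA2OE replicate 1 (316 and 331) and wild-type E8.5 replicate 1 (118 and 128). Next came wild-type FNP replicate 3 of E11.5 (71.3 and 65.3) and replicate 1 of E10.5 (42.3 and 44.4).

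Named genes are the 3 genes, the targeted genes Ezh2 and Hoxa2, called members of each list (up to 4 with at least 5 CPM, and, picked with their values known, others where a count is small), the 5 genes of highest correlation with each, and tested genes within 500 kilobases. The members and lists were chosen with earlier results of these data known.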

Additional observations from a re-analysis of the deposited data

Results flagged for a closer look

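The change of Pax9 with stage differed between subpopulations (F test of 3 contrasts in edgeR, adjusted p = 8.94e-09), with log2 changes of E11.5 over E10.5 from 0.80 in PA2 to 2.302 in Md. That of Nkx3-2 differed as well (adjusted p = 0.0204): it fell by 2.62 in PA2, while the change in Md was 0.25 ± 0.42. The effect of Ezh2 loss on Pax9 differed between subpopulations (adjusted p = 2.25e-05), from -0.41 in PA2 to 0.74 in Md.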

How the results depend on the processing

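Of 1150 alternatives to 87 results on the 3 genes, 1091 kept direction and side of the threshold, 50 lost a call, 9 gained one and none changed direction with a call; RLE scaling changed no call. DESeq2 gives no counterpart of the F tests here, which were not run with it. With no filter on low counts, Nkx3-2 was called for PA2 over Mx at E11.5 (adjusted p = 0.0287) and Pax1 for Ezh2cKO in FNP (1.96). DESeq2 called both (adjusted p = 0.0306; 1.96) and Pax1 for HoxA2OE over wild-type PA2 (adjusted p = 0.0389), and lost Pax1 for Md over FNP at E11.5 (-0.98). The replicate block ended 1 call, Nkx3-2 for HoxA2OE over wild-type PA2 (-1.17, adjusted p = 0.0537), and no other. In fits of the groups compared alone, calls were gained for Nkx3-2 in PA2 over Mx at E11.5 (adjusted p = 0.0475), Nkx3-2 and Pax1 with Ezh2 loss in PA2 (0.97) and FNP (1.97), and Pax9 in Control over wild-type PA2 (-0.24). There, calls were lost for HoxA2OE over wild-type Md (Pax1, adjusted p = 0.0665; Nkx3-2, -1.81) and over wild-type PA2 (Pax9, 0.30; Nkx3-2, -1.22). The cause was not tested.

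Leaving out 1 library at a time, 44 of 721 values lost a call. For Pax1 at E10.5 the log2 change ranged from 1.54 to 2.69 (Mx over FNP), -8.15 to -3.43 (PA2 over Mx) and -3.57 to -2.18 (Md over Mx), and at E11.5 from -1.22 to -0.82 (Md over FNP). With Ezh2 loss it ranged from 2.81 to 7.50 (Pax1, PA2), 2.21 to 3.35 (Pax1, Md), -0.47 to -0.33 (Pax9, PA2) and 0.48 to 0.55 (Pax9, Mx). The adjusted p ranged from 0.016 to 0.0596 for the F test of stage on Nkx3-2 and from 0.0287 to 0.165 for Pax1 in HoxA2OE over wild-type Md. The PA2 minus Md stage difference of Nkx3-2 ranged from -3.07 to -2.66. HoxA2OE over wild-type PA2 ranged from 0.26 to 0.43 (Pax9) and -1.52 to -0.73 (Nkx3-2), Control over wild-type PA2 from 0.96 to 2.09 (Nkx3-2), and Hoxa2TempMut over Control from 1.91 to 3.04 (Nkx3-2).

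In fits of the groups compared alone, counts of genes called that moved by over 1.5 times were 1839 beside 960 (PA2 over Md, E10.5), 2995 beside 1802 (PA2 over Mx, E10.5), 2125 beside 1359 (Md over Mx, E10.5), 3149 beside 1885 (Ezh2 loss in PA2), 6355 beside 11277 and 6610 beside 11529 (HoxA2OE over wild-type Md and PA2), 272 beside 128 (Hoxa2TempMut over Control), 90 beside 52 (PA2 minus Md effect of Ezh2 loss) and 543 beside 335 (its F test). Leaving out 1 library took them as low as 1179, 888 and 1783 (beside 1802, 1359 and 3400: PA2 over Mx, Md over Mx and Mx over FNP, E10.5), 2191 (beside 3430: Mx over FNP, E11.5), 1230, 1206 and 748 (beside 1885, 1823 and 2111: Ezh2 loss in PA2, Md and Mx) and 75 (beside 128: Hoxa2TempMut over Control). Pax1 before E11.5 and Nkx3-2 throughout rest on few counts, so their absence from a group cannot be told from a low level. Simulated counts for the 20560 genes gave calls for 46 to 50 of 50 genes at log2 changes of 1 or 2 in either direction. The changed genes were drawn from those with at least 5 CPM in Control, and Hoxa2TempMut over Control was the comparison tested. Pax1 before E11.5 and Nkx3-2 throughout lay below that level, so these rates do not cover them.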
